A study of Arabidopsis thaliana with 12 samples.

Results

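The genes described here are 10 Arabidopsis thaliana genes of meiotic recombination and chromosome synapsis, chosen by name and identifier from the 38640 genes of the deposited mRNA table: SPO11-1 (AT3G13170), SPO11-2 (AT1G63990), DMC1 (AT3G22880), ASY1 (AT1G67370), ZYP1A (AT1G22260), ZYP1B (AT1G22275), SDS (AT1G14750), SYN1 (AT5G05490), MSH4 (AT4G17380) and MER3 (AT3G27730). The study made mRNA-Seq and small RNA libraries from the same tissues in order to place both on an absolute scale with spike-in RNAs, and only its 6 mRNA-Seq libraries measure these genes. There were 3 groups of 2 biological replicates, each a separately collected pool of tissue from 4 to 6 week old plants of the Col-0 ecotype. Col-0 leaves were rosette and cauline leaves of wild type plants, Col-0 flowers were unopened floral buds of wild type plants, and dcl234 flowers were unopened floral buds of plants homozygous for mutant alleles of the Dicer-like genes that make short interfering RNAs, namely dcl4-2t together with dcl2-1 and dcl3-1. The wild type buds and leaves came from the same plants, and no dcl234 leaves were sampled. Levels are in TPM, the number of transcripts of a gene in 1000000 transcripts, which is corrected for transcript length, so levels of different genes can be set side by side. The number of reads behind a TPM value is unknown from this table.

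In meiosis, homologous chromosomes pair, exchange DNA and then separate. SPO11 proteins cut the DNA, the strand-exchange protein DMC1 brings the broken ends to the homologous chromosome, and a protein axis and then the synaptonemal complex hold the homologues together while some of the exchanges become crossovers. In plants this takes place in male meiocytes inside the anthers and in female meiocytes inside the ovules, which are few among the cells of a bud, and leaves hold no meiocytes. A whole bud library therefore averages meiocytes with many other cells, and in such bulk samples fewer cells of a type and less RNA per cell cannot be told apart.

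Sequence bears on these values in 2 ways, because reads shared between genes have to be divided between them and because the library method does not keep strand. ZYP1A and ZYP1B are neighbours on chromosome 1 that point away from each other, ZYP1A at 7859630 to 7865263 on the minus strand and ZYP1B at 7867067 to 7872715 on the plus strand, with 19 exons each (RefSeq annotation, TAIR10.1). Their coding sequences were identical in 90.5% of aligned positions, and 160 of the 2904 windows of 50 bases in the ZYP1A transcript also occurred in ZYP1B. The coding stretch with 15 differing bases in 90, from position 1177 to 1266 counted from the start codon, is shown because reads from it can tell the copies apart. Capitals mark the bases that differ.
ZYP1A: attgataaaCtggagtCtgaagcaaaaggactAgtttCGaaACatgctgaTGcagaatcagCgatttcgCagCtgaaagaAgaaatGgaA
ZYP1B: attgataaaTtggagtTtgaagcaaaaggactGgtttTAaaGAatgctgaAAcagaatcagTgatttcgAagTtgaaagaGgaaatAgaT
The transcripts of DMC1, SDS, SPO11-1 and MSH4 shared no window of 50 bases with another gene. The coding sequences of SPO11-1 and SPO11-2 were identical in 51.8% of aligned positions.

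DMC1 lies on chromosome 3 at 8097678 to 8100932 on the minus strand and has 15 exons. Of the members not placed so far, SPO11-2, ASY1 and SDS lie on chromosome 1, SPO11-1 and MER3 on chromosome 3, MSH4 on chromosome 4 and SYN1 on chromosome 5, with 6 (SDS) to 29 (MER3) exons. The 250 bases upstream of the annotated starts of DMC1 and ZYP1A are shown because DMC1 is the member that differed most between groups and because ZYP1A is the member whose upstream bases matched both cell cycle motifs searched for. The motifs were the E2F site, TTTCCCGC or TTTGGCGC, and the mitosis-specific activator core CNAACGG, on both strands, and capitals mark matches (RefSeq, TAIR10.1).
DMC1, chr3:8100933-8101182, minus strand: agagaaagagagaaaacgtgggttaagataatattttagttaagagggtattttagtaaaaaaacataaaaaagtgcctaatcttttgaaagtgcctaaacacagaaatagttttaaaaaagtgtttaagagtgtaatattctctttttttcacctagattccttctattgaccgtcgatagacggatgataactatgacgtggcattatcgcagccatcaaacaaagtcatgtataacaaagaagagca
ZYP1A, chr1:7865264-7865513, minus strand: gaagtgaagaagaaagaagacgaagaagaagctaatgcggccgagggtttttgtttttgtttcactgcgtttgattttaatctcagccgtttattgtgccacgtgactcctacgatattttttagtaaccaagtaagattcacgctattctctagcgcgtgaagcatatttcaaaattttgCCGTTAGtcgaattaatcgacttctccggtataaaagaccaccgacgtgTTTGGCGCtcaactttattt
The DMC1 stretch held neither motif in these 250 bases. In ZYP1A the E2F letters began 20 bases before the start, and the activator core was found on the opposite strand, 69 bases before the start. Among the 10 genes, 1 had an E2F match and 2 had an activator core match (ZYP1A and SPO11-1). Among 27443 upstream stretches of the same length, 0.958% held an E2F match and 4.50% an activator core match. A match is a match of letters only.

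Marker genes followed the tissue labels. All 6 leaf photosynthesis markers were lower and all 7 floral organ markers were higher in Col-0 flowers than in Col-0 leaves (limma on log2(TPM + 1), adjusted p under 0.05). The libraries differed in composition, which touches every TPM value below. Nuclear protein-coding genes took 68.8% and 58.6% of the TPM in Col-0 leaves 1 and 2, 42.4% and 60.1% in Col-0 flowers 1 and 2, and 72.7% and 81.7% in dcl234 flowers 1 and 2. Levels are therefore also given rescaled so that nuclear protein-coding genes sum to 1000000 in each library, a scale chosen after the data had been seen. On the log2(TPM + 1) scale the median gene lay 0.31 higher in Col-0 flowers than in Col-0 leaves and 0.50 higher in dcl234 flowers than in Col-0 flowers, and these medians became 0.63 and -0.02 after rescaling.

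All 10 genes were expressed at low levels. The sum of the 10 was 1.1 and 0.33 TPM in Col-0 leaves, 4.91 and 7.82 TPM in Col-0 flowers, and 10.8 and 11.3 TPM in dcl234 flowers. Of the 10 genes, 8 and 2 were above 0 in the leaf libraries, 9 in each Col-0 flower library and 10 in each dcl234 library. Only DMC1 reached a mean of 1 TPM over the 6 libraries, the minimum for the main test of 19778 genes, with a mean of 3.04 TPM. SDS lay just below the minimum at 0.857 TPM, and the other 8 genes had means between 0.168 and 0.428 TPM. The 9 genes below the minimum were tested in a fit of all 29327 genes with any signal, where every member had a value.

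**Figure D1:**
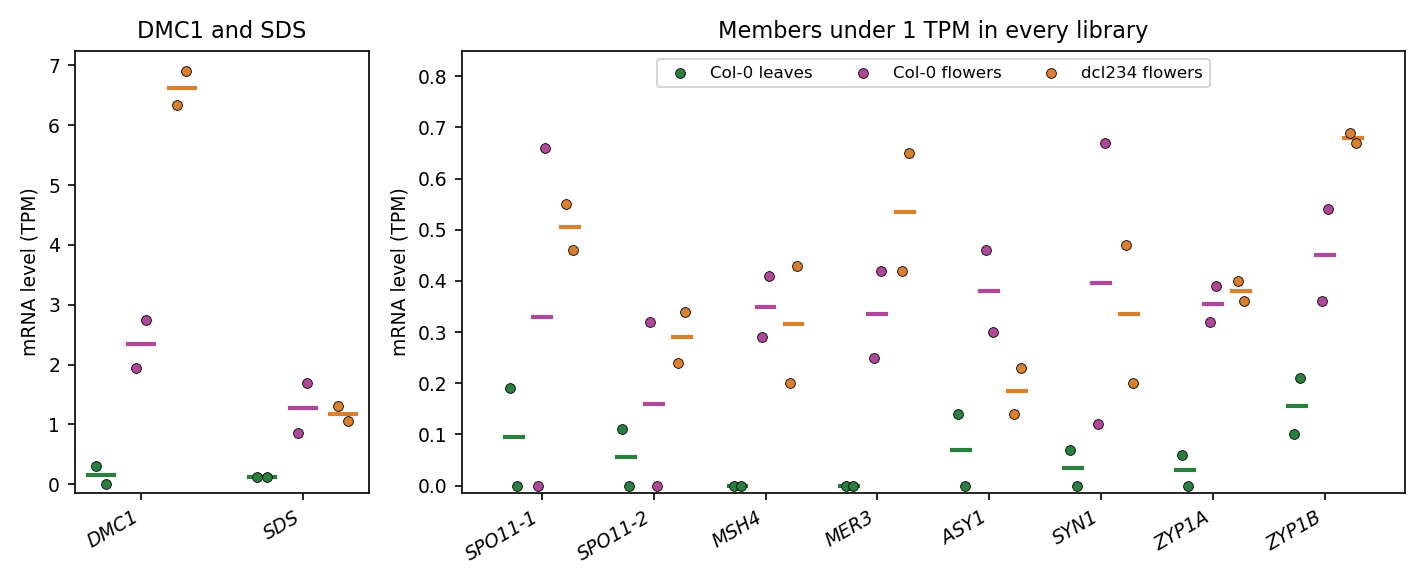
TPM of the 10 genes in each of the 6 libraries, with a point per library coloured by group (Col-0 leaves, Col-0 flowers, dcl234 flowers) and a dash at each group mean, DMC1 and SDS in the left panel and the other 8 genes on a finer axis in the right panel. DMC1 rises from at most 0.31 TPM in leaves to 1.94 and 2.74 TPM in Col-0 flowers and 6.34 and 6.90 TPM in dcl234 flowers, while the 8 genes at right stay below 0.70 TPM in every library.

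SPO11-1, the topoisomerase-like protein that cuts the DNA, was listed at 0.19 and 0 TPM in Col-0 leaves, 0 and 0.66 TPM in Col-0 flowers, and 0.55 and 0.46 TPM in dcl234 flowers. SPO11-2, which acts with SPO11-1 in the cutting complex, was listed at 0.11 and 0 TPM in leaves, 0.32 and 0 TPM in Col-0 flowers, and 0.24 and 0.34 TPM in dcl234 flowers. Each of the 2 was thus at 0 in a Col-0 flower library, and the leaf and flower ranges overlapped. The SPO11-2 values carry a further limit: its gene overlaps AT1G63980 on the opposite strand by 461 bases, and that neighbour was measured at 21.7 to 54.4 TPM. Of the 50-base windows in the SPO11-2 transcript, 23.9% also occurred in transcripts of other genes.

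DMC1, which carries out strand exchange between homologues in meiosis, was the most abundant member in every bud library. It was listed at 0.31 and 0 TPM in Col-0 leaves, 1.94 and 2.74 TPM in Col-0 flowers, and 6.34 and 6.90 TPM in dcl234 flowers. The 3 groups did not overlap, and the order was leaves, Col-0 flowers, dcl234 flowers. DMC1 alone made up 39.5% and 35.0% of the members' summed TPM in the Col-0 bud libraries, compared with 58.9% and 61.1% in the dcl234 libraries.

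SDS, a cyclin that is needed in meiocytes for pairing and for recombination through DMC1, came next. It was listed at 0.12 and 0.12 TPM in Col-0 leaves, 0.85 and 1.69 TPM in Col-0 flowers, and 1.31 and 1.05 TPM in dcl234 flowers. Both bud groups lay above the leaves, and they overlapped each other. In both bud groups the ranges of DMC1, SDS and the members below them were separate.

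ASY1, a protein of the chromosome axis, was listed at 0.14 and 0 TPM in Col-0 leaves, 0.46 and 0.30 TPM in Col-0 flowers, and 0.14 and 0.23 TPM in dcl234 flowers. It was the only member that was lower in both dcl234 libraries than in both Col-0 flower libraries on the TPM scale. SYN1, the meiotic cohesin subunit that holds sister chromatids together, was listed at 0.07 and 0 TPM in leaves, 0.12 and 0.67 TPM in Col-0 flowers, and 0.47 and 0.20 TPM in dcl234 flowers. The spread between the Col-0 flower replicates of SYN1 covered both dcl234 values.

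ZYP1A and ZYP1B encode closely related proteins of the transverse filaments that join the axes in the synaptonemal complex. ZYP1A was listed at 0.06 and 0 TPM in Col-0 leaves, 0.32 and 0.39 TPM in Col-0 flowers, and 0.40 and 0.36 TPM in dcl234 flowers. ZYP1B was listed at 0.10 and 0.21 TPM in leaves, 0.36 and 0.54 TPM in Col-0 flowers, and 0.69 and 0.67 TPM in dcl234 flowers. The copies had overlapping ranges in Col-0 flowers, whereas ZYP1B lay above ZYP1A in both dcl234 libraries. Given the windows they share, the division of reads between the copies is uncertain.

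The crossover genes were listed at 0 in both leaf libraries. MSH4, which works with MSH5 to stabilise recombination intermediates, reached 0.29 and 0.41 TPM in Col-0 flowers, compared with 0.20 and 0.43 TPM in the dcl234 libraries. MER3, a DNA helicase of the same crossover pathway, reached 0.25 and 0.42 TPM in Col-0 flowers, compared with 0.42 and 0.65 TPM in the dcl234 libraries. The bud groups overlapped for MSH4 and touched at the same value for MER3. MSH4 overlaps AT4G17390 on the other strand by 44 bases, and that gene was measured at 119 to 668 TPM, whereas the gene that overlaps MER3 by 524 bases, AT3G27720, was at 0.12 TPM or less. In Col-0 flowers the full order of the 8 genes below SDS could not be set, since the ranges of all neighbours in it overlapped.

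The comparison of Col-0 flowers with Col-0 leaves asks how the genes differ between an organ that holds meiocytes and an organ that does not. Of the 10 genes, 8 were higher in both flower libraries than in both leaf libraries, the exceptions being SPO11-1 and SPO11-2, and none was lower. Among all 29327 genes with any signal, 37.4% were higher in this way and 17.1% lower. After rescaling the same 8 members were higher, beside 50.9% of all genes, and 14.8% of all genes were lower. DMC1 rose, with a log2 fold change of 1.53 ± 0.33 (SE, n = 2 per group, adjusted p = 0.00235 in limma). In the main test 24.9% of genes were called higher in flowers and 12% lower. The DMC1 call was lost when libraries were scaled to the ERCC spike-ins (limma adjusted p = 0.533). It was kept in the other alternatives, but all of these except the fit with no minimum level kept the minimum of 1 TPM.

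With no minimum level, 3 of the 10 genes rose in flowers and none fell, against 14.6% and 6.8% of all genes tested in limma. These were DMC1 (limma adjusted p = 0.0164), SDS and ZYP1A. The other alternatives for DMC1 above kept the minimum level, which DMC1 passed through its bud libraries. With no minimum level and a replicate left out, its log2 fold change was 1.34 to 1.73. Whether DMC1 was called there depended on the library left out. SDS rose by 0.99 ± 0.23 (SE, n = 2 per group, limma adjusted p = 0.0313) and ZYP1A by 0.40 ± 0.10 (limma adjusted p = 0.0378) on the log2(TPM + 1) scale. This scale understates the change of genes as low as these, and the ZYP1A value carries the limit of its overlap with AT1G22250. The 7 others had limma adjusted p between 0.0543 for MSH4 and 0.610 for SPO11-2. The median log2 fold change of the 10 was 0.40, beside 0.16 for all genes. After rescaling, 7 of the 10 rose, adding ASY1, ZYP1B, MSH4 and MER3, against 34.4% of all genes. The count fell to 0 without Col-0 leaves 1, Col-0 leaves 2 or Col-0 flowers 2, and to 1 without dcl234 flowers 1.

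Most of the dividing-cell and tissue markers tested were also higher in Col-0 flowers than in Col-0 leaves. All 11 dividing-cell markers rose in Col-0 flowers, from summed levels of 19.5 and 25.0 TPM in leaves to 128 and 215 TPM. The 8 later tapetum markers, genes of the anther layer that feeds the meiocytes, also all rose, from 3.31 and 4.86 to 186 and 259 TPM, with 6 of the 8 at 0 in each leaf library. The 8 sporogenous and early tapetum markers summed to 18.5 and 11.9 TPM in leaves and to 20.4 and 27.2 TPM in Col-0 flowers, and of the 4 tested 3 rose while TPD1 fell. Of the 7 carpel and ovule markers, 6 rose, as did all 6 of the pollen markers tested. The ovule marker BEL1 was at 14.6 and 9.99 TPM in leaves and 5.42 and 7.25 TPM in Col-0 flowers. It was not called (limma adjusted p = 0.0553), but it was called lower after rescaling with no minimum level. The part of these cell types in the members' values was not tested.

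The comparison of dcl234 flowers with Col-0 flowers, which shares the Col-0 flower libraries with the comparison above, asks how the genes differ when 3 Dicer-like genes are mutated. No member was called. DMC1 was 6.62 ± 0.40 TPM (SD, n = 2) in dcl234 flowers and 2.34 ± 0.57 TPM (SD, n = 2) in Col-0 flowers, a ratio of 2.83. Its log2 fold change was 1.20 ± 0.33 (SE), with an unadjusted p of 0.0027 and an adjusted p of 0.0864 in limma. Over 15 alternatives the adjusted p ran from 0.00973 to 0.568 and was under 0.05 in 5, namely the fit of the 4 bud libraries alone (0.0246), the fit with the replicate number as a block (0.0497), the scaling to ERCC spike-ins (0.00973) and the fits without Col-0 leaves 1 (0.0169) or Col-0 leaves 2 (0.0186). In the main test 1.34% of all genes were called higher in dcl234 flowers and 0.48% lower, and 4412 of the 19778 had an unadjusted p under 0.05. The alternatives that called DMC1 also called more genes. Of all 19778, the fit of the 4 bud libraries called 1069 higher, the replicate block 722 and the ERCC scaling 17398.

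The size of the DMC1 difference depended on the scale, whereas its direction did not. Rescaled to nuclear protein-coding genes, DMC1 stood at 4.57 and 4.56 for Col-0 flowers, as against 8.72 and 8.45 for dcl234 flowers, so that the replicates of each group lay close together and the ratio was 1.88. On this scale its log2 fold change was 0.78 ± 0.25 (SE, n = 2 per group, limma adjusted p = 0.353), beside a median of -0.02 for all genes. The summed level of the other 9 members did not follow DMC1. For Col-0 flowers it was 2.97 and 5.08 TPM, or 7.00 and 8.46 after rescaling. For dcl234 flowers it was 4.42 and 4.39 TPM, or 6.08 and 5.37 after rescaling.

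**Figure D2:**
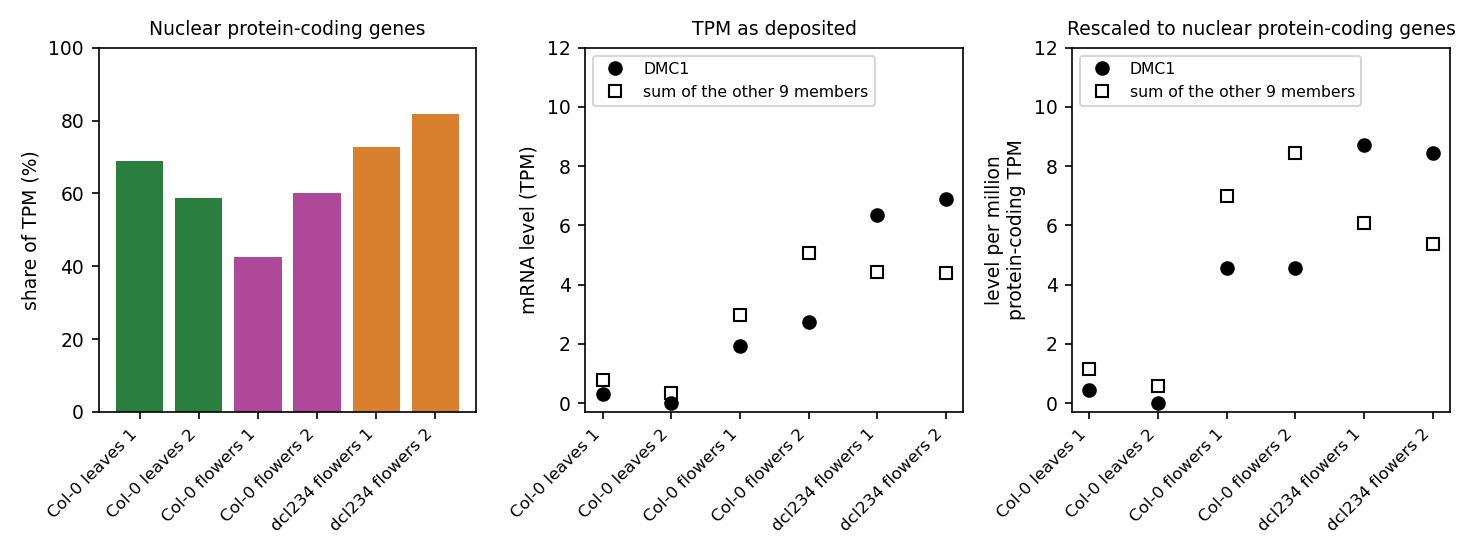
Share of the TPM in nuclear protein-coding genes (left, percent, bars from 0), and the level of DMC1 (filled circles) beside the sum of the other 9 genes (open squares) in the 6 libraries, in TPM (middle) and rescaled to nuclear protein-coding genes (right). DMC1 is higher in both dcl234 libraries on both scales, while the sum of the other 9 overlaps between the bud groups in TPM and is lower in both dcl234 libraries after rescaling, at 6.08 and 5.37 against 7.00 and 8.46.

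With no minimum level none of the 10 genes was called between the bud groups in limma, and 1, DMC1, had an unadjusted p under 0.05. Of all 29327 genes, 4876 had an unadjusted p under 0.05. In that fit 0.228% of all genes were called higher in dcl234 flowers and 0.0682% lower. The median log2 fold change of the 10 was 0.10, beside 0.36 for all genes. On the TPM scale DMC1 and ZYP1B were higher in both dcl234 libraries, where 51.4% of all genes were, and ASY1 was lower, where 4.86% were. After rescaling only DMC1 was higher, beside 19.1% of all genes, and ASY1, ZYP1A, SDS and MSH4 were lower, beside 23.4%. ASY1 was thus lower on both scales. Its mean was 0.38 ± 0.11 TPM (SD, n = 2) in Col-0 flowers, and 0.18 ± 0.06 TPM (SD, n = 2) in dcl234 flowers, a ratio of 0.487, or 0.299 after rescaling. Its log2 fold change was -0.22 ± 0.12 (SE, limma adjusted p = 0.348). ASY1 shared 7.87% of its 50-base windows with AT1G67365, which overlaps it on the opposite strand and was measured at 2.75 to 7.39 TPM.

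Few stage and cell markers were called between the bud groups. The later tapetum markers summed to 429 and 586 TPM in dcl234 flowers against 186 and 259 TPM in Col-0 flowers, and after rescaling to 590 and 718 against 440 and 431. Of these 8 markers, 1 (ATA7) was called higher. It stood at 243 and 382 TPM in dcl234 flowers against 97.65 and 109 TPM in Col-0 flowers, a large part of each sum. The 7 carpel and ovule markers summed to 177 and 218 TPM in dcl234 flowers against 82.8 and 142 TPM in Col-0 flowers, and after rescaling to 244 and 267 against 195 and 236. Of these 7, 1 was called higher, the carpel regulator CRC, at 39.9 and 44.3 TPM against 8.17 and 17.6 TPM (log2 fold change 1.72 ± 0.35, SE, limma adjusted p = 0.0228). The 7 pollen markers summed to 473 and 478 TPM in Col-0 flowers but to 204 and 377 TPM in dcl234 flowers. After rescaling they summed to 1116 and 796 against 280 and 462, and none of the 6 tested was called. The sporogenous and early tapetum markers summed to 37.4 and 41.9 TPM in dcl234 flowers against 20.4 and 27.2 TPM in Col-0 flowers. After rescaling they summed to 51.4 and 51.3 against 48.0 and 45.3, and none of the 4 tested was called. The dividing-cell markers summed to 243 and 239 TPM against 128 and 215 TPM, and after rescaling to 334 and 292 against 301 and 359, where the groups overlapped, and none of the 11 was called. The part of bud stage and cell make-up in the DMC1 values was not tested.

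Another 49 genes of the meiotic machinery were listed by role for comparison, of which 33 passed the minimum level. Of these, 12 rose in Col-0 flowers against leaves and none fell, beside 24.9% and 12% of all genes tested in limma. With no minimum level, 7 of the 49 rose and none fell, beside 14.6% and 6.8%, and their median log2 fold change was 0.51 beside 0.16 for all genes. By role the 12 were 1 of 2 tested in break formation, 3 of 9 in end processing and strand exchange and 2 of 4 in crossover formation. They were 1 of 2 in crossover limitation, 4 of 13 in axis and cohesion and 1 of 3 in the meiotic cell cycle. With no minimum level the counts were 1 of 5, 1 of 11, 1 of 8, 0 of 6, 3 of 14 and 1 of 5. The order of roles is the same, and 14.6% of all genes were called higher in that fit. After rescaling 27 of the 33 rose, beside 9489 of all 19778 genes tested, and without Col-0 flowers 2 the count on the TPM scale was 5. Several of the 49 also act in dividing or somatic cells. Their summed level was 70.3 and 61.5 TPM in leaves, 102 and 173 TPM in Col-0 flowers, and 194 and 201 TPM in dcl234 flowers.

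PANS1, a protector of centromeric cohesion, differed most. It stood at 0.52 and 0.45 TPM in Col-0 leaves, 7.69 and 18.4 TPM in Col-0 flowers, and 26.6 and 24.4 TPM in dcl234 flowers. Its log2 fold change in flowers against leaves was 3.13 ± 0.37 (SE, limma adjusted p = 1.5e-05). OSD1, an inhibitor of the anaphase-promoting complex that drives entry into the later meiotic division, stood at 0.23 and 0.24 TPM in leaves, compared with 5.64 and 7.24 TPM in Col-0 flowers (2.58 ± 0.30, limma adjusted p = 1.4e-05). These 2 genes had higher levels than DMC1 in every bud library. Both reached the minimum level through their bud libraries, and both calls were kept with no minimum level.

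Of the partners of the members, the axis protein ASY4 was listed at 0 and 0.15 TPM in leaves and 3.42 and 6.62 TPM in Col-0 flowers, and rose by 2.44 ± 0.34 (SE, limma adjusted p = 7.3e-05). Its axis partner ASY3 was at 0.50 and 0.50 TPM in leaves and 1.42 and 2.92 TPM in Col-0 flowers, and rose by 1.04 ± 0.35 (limma adjusted p = 0.0324). PRD3, which acts with SPO11-1 and SPO11-2 in break formation, was at 0.35 and 0.88 TPM in leaves but reached 3.43 and 4.50 TPM in Col-0 flowers, and it rose by 1.63 (limma adjusted p = 0.00152). The crossover protein HEI10 rose by 1.54, from 0.11 and 0.22 TPM to 1.79 and 3.08 TPM (limma adjusted p = 0.00347). ASY4, PRD3 and HEI10 reached the minimum level through their bud libraries, and their calls were kept with no minimum level. MND1, a cofactor of strand exchange, rose by 1.30, from 0.99 and 0.83 TPM to 2.53 and 5.27 TPM (limma adjusted p = 0.00934). The ASY3 and MND1 calls were lost without Col-0 flowers 2 (limma adjusted p = 0.106 and 0.0761), and that of ASY3 also without Col-0 leaves 1 (0.0506). With no minimum level both calls were lost (0.0648 for ASY3 and 0.0553 for MND1), and over 15 alternatives ASY3 stayed under 0.05 in 10 and MND1 in 12. MSH5, the partner of MSH4, was below the minimum level, at 0.33 and 0 TPM in leaves, 0.39 and 0.77 TPM in Col-0 flowers, and 0.54 and 0.57 TPM in dcl234 flowers.

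Between dcl234 and Col-0 flowers none of the 33 tested genes was called in limma. An unadjusted p under 0.05 was found for 3 of the 33, beside 4412 of all 19778 genes tested. With no minimum level the median log2 fold change of the 49 was 0.28, beside 0.36 for all genes. Of all 49 genes, 22 were higher and 2 lower in both dcl234 libraries on the TPM scale, beside 51.4% and 4.86% of all genes, and 3 were higher and 15 lower after rescaling, beside 19.1% and 23.4%. HEI10, at 2.21 and 2.69 TPM in dcl234 flowers, changed sign with the scale, from 0.03 on TPM to -0.44 after rescaling, and neither value passed the test.

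**Figure D3:**
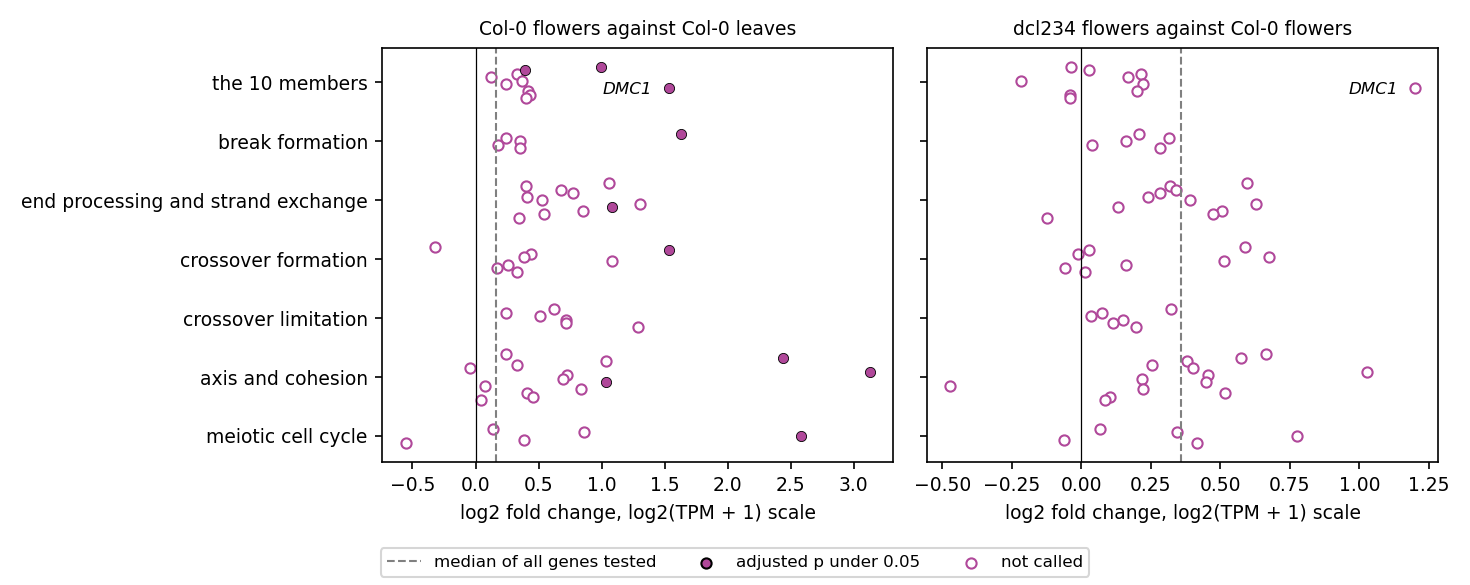
Log2 fold changes on the log2(TPM + 1) scale, with no minimum level, of the 10 genes and of 6 groups of other meiosis genes, each point a gene, filled where the limma adjusted p was under 0.05 and open otherwise, with the median of all genes as a dashed line. In Col-0 flowers against leaves (left) 3 of the 10 and 7 of the 49 others are filled, all to the right of 0, and in dcl234 against Col-0 flowers (right) no point is filled and DMC1 is farthest right at 1.20.

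As the only member above the minimum level, DMC1 was also compared with all other tested genes by its profile over the 6 libraries. The closest by Pearson correlation of log2(TPM + 1) were NIK2 (r = 0.999), GH9B18 (r = 0.998), CHR38 (r = 0.998), MED32 (r = 0.998) and AT3G10080 (r = 0.997). Of the 19777 genes compared, 3030, or 15.3%, had a correlation of 0.95 or more, so that a profile like that of DMC1 was common in these libraries. The 6 points come from 3 groups and share the composition of each library, and the correlations are a description. GH9B18, for example, was at 0.50 and 0.26 TPM in leaves, 3.26 and 4.21 TPM in Col-0 flowers, and 9.52 and 10.7 TPM in dcl234 flowers.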

How the data were processed

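Paired-end poly(A) reads from 6 mRNA-Seq libraries, made by a Smart-seq2 method that does not keep strand, were aligned by the authors to TAIR10 and the ERCC spike-in sequences with RSEM, and deposited as TPM per Araport11 gene, which total 1000000 per library over genes and 92 ERCC transcripts. The RSEM version was not given in the sources used here. Bowtie is named in the submitters' processing notes. The TPM table keeps no read depth, so no counting interval can be given. The 6 small RNA libraries were not used here.

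ERCC transcripts were left out, and genes whose mean reached 1 TPM were tested on log2(TPM + 1) with limma 3.58.1 (R 4.3.3), with a mean-variance trend, all 6 libraries and Benjamini-Hochberg adjustment. Genes were called at adjusted p under 0.05. The script was tested on simulated data. A separate exact permutation test of 2 against 2 cannot go below p = 0.33. Coordinates and sequences are from RefSeq (TAIR10.1), in which all 10 genes were found by identifier. Named among other genes were the 6 meiosis genes with the largest called change in each comparison, MSH5, ASY3 and HEI10, and the 5 genes with profiles most like the tested member. A further gene that this rule names is not reported here. The members and the gene lists were chosen with earlier results of these data known.

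Replicate numbers are not stated to pair libraries, and same-numbered libraries did not deviate together (correlations of deviations from group means of 0.03, -0.03 and 0.04). Alternatives were a pseudocount of 0.1, minimum levels of 0 and 5 TPM, other scalings, other sets of libraries, a replicate block, no trend and each replicate left out.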

Additional observations from a re-analysis of the deposited data

How the results depend on the processing

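Between Col-0 flowers and Col-0 leaves, the number of the 10 genes called was 1, and it became 3 with no minimum level and 0 with ERCC scaling, where DMC1 had a log2 fold change of 1.18. With no minimum level the 3 calls became 7 after rescaling to nuclear protein-coding genes, 5 with a pseudocount of 0.1, and 0 to 3 with a replicate left out. The median log2 fold change of the tested members, which is DMC1 alone at the minimum of 1 TPM, was 3.57 with a pseudocount of 0.1, 0.40 with no minimum level, 0.77 with quantile normalization, 1.18 with ERCC scaling and 2.21 after rescaling. Of the other meiosis genes, 12 were called, against 7 with no minimum level, 2 of 8 tested at a minimum of 5 TPM, 1 with ERCC scaling, 27 after rescaling, and 5 to 16 with a replicate left out.

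Between dcl234 and Col-0 flowers, DMC1 was called (1 gene) in the fit of 4 libraries (1.20), with the replicate block (1.20), with ERCC scaling (2.90) and without either leaf replicate, and its log2 fold change was 1.03 to 1.37, with 0 to 1 genes called, when a replicate was left out. The median was 0.10 with no minimum level, 0.86 with quantile normalization, 0.71 with median scaling, 2.90 with ERCC scaling and 0.78 after rescaling. ERCC scaling called 28 of the 33 other meiosis genes and moved the median of all genes to 2.34. It called 17398 of all 19778 genes higher. The replicate block changed no other call of a named gene and gave 13 calls among the other meiosis genes in flowers against leaves. All genes called higher and lower were 4932 and 2378 in flowers against leaves, against 4403 and 4655 with median scaling and 9489 and 2397 after rescaling. For dcl234 against Col-0 flowers they were 266 and 95, against 78 and 214 with median scaling and 68 and 183 after rescaling.

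Signs changed for low or little changed genes. In flowers against leaves SPO11-1 was -0.13 without Col-0 flowers 2 and SPO11-2 was -0.075 without Col-0 flowers 1. In dcl234 against Col-0 flowers, without Col-0 flowers 1 the values were -0.14 for SPO11-1 and -0.011 for ZYP1A, and without Col-0 flowers 2 they were -0.034 for SPO11-2, 0.23 for SDS, 0.25 for SYN1 and 0.022 for MSH4. Without dcl234 flowers 2 they were 0.050 for SDS and 0.10 for SYN1, and without dcl234 flowers 1 MSH4 was 0.084. HEI10 ran from -0.25 to 0.30 with a replicate left out. Rescaling gave -0.19 for ZYP1A, -0.44 for HEI10 and -0.039 for ASY3, a pseudocount of 0.1 gave 0.0068 for SYN1, quantile normalization gave -0.38 for HEI10, and median scaling gave -0.46 for HEI10 and -0.11 for ASY3. The cause of these changes was not tested. A minimum of 5 TPM left no member to test. The rescaling and the member fits with no minimum level beside a further change were chosen after seeing the data. With a replicate left out, the lone library is assumed to vary like the other groups. Levels under 1 TPM and 2 replicates a group limit these results.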
